A study of Mus musculus with 18 samples.

Results

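Ttr, Aqp1, Clic6, Kl and Sostdc1 are 5 genes that the brain transcribes strongly in the choroid plexus epithelium, and they were followed in total mRNA, in ribosome-contained mRNA and in the ratio of both, in wild-type (WT) brain and in brain without a working Ftsj1 gene (knockout, KO). They were found in the deposited table by matching its RefSeq transcript accessions to gene symbols, and for each gene the accession with the most counts over the 12 libraries was used. They are 5 of the 32812 gene symbols with a row in that table. The 5 were chosen by their total mRNA fold changes between KO and WT, which earlier results of these data had shown above 0 for all of them. The genotype differences below are therefore a description of these 6 mice and not independent evidence, and the mice behind the ribosome-contained libraries are the same ones.

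The study took dissected whole brains of male C57BL/6 mice aged 8 weeks, 3 WT and 3 Ftsj1 KO, with no treatment in either group. Ftsj1 encodes an enzyme that methylates the ribose of certain tRNAs in the anticodon loop, tRNA-Phe among them. Each mouse gave a library of polyadenylated total mRNA and a library of the mRNA fragments held inside ribosomes, so that n = 3 mice for each genotype and library kind. Total mRNA libraries held 2024748 to 3459406 counts and ribosome-contained libraries 1055741 to 1560192. The 2 accessions of Ftsj1 itself had 0 counts in every library, WT included, so the table cannot check the genotype labels, and the labels used here do not describe the allele. The tissue is a whole brain, in which the choroid plexus is a small part: fewer cells of a type and less RNA per cell cannot be told apart, and how much choroid plexus each dissection held is not recorded in the labels.

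The choroid plexus is the folded epithelium in the brain ventricles that secretes cerebrospinal fluid and forms the barrier between blood and that fluid. Its cells move sodium, chloride, bicarbonate and water from the blood side to the ventricle side, and they release carrier proteins and signalling proteins into the fluid. Transthyretin, the product of Ttr, carries thyroid hormone and the retinol-binding protein. Aqp1 encodes a water channel of the membrane facing the ventricle, and Clic6 a member of the chloride intracellular channel family. Kl encodes alpha-klotho, a membrane protein that acts as co-receptor for the hormone FGF23 and is also shed in soluble form. Sostdc1 encodes a secreted protein that binds BMP ligands and the Wnt co-receptors.

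Because Ftsj1 acts on tRNA-Phe, the stretch of 20 codons with the most phenylalanine codons is shown for the 4 genes other than Ttr, from the coding sequence of the GENCODE transcript that carries the same RefSeq accession. TTT and TTC codons are in capitals, the build is GRCm38 and all run on the plus strand: codons 7 to 26 of Aqp1 (chr6:55336509-55336568), 377 to 396 of Clic6 (chr16:92528084-92528143), 976 to 995 of Kl (chr5:150991735-150991794) and 5 to 24 of Sostdc1 (chr12:36314306-36314365).
Aqp1: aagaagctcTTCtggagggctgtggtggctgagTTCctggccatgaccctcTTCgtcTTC
Clic6: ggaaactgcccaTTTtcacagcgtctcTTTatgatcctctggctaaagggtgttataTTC
Kl: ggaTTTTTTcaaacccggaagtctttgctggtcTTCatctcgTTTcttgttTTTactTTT
Sostdc1: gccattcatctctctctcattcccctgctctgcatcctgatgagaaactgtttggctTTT
The Kl stretch held 6 phenylalanine codons, of which the first 2 are adjacent, against 4 in Aqp1, 3 in Clic6 and 1 in Sostdc1. Over the whole coding sequence, phenylalanine codons made up 56 of 1014 sense codons in Kl (5.52%), 8 of 147 in Ttr (5.44%), 12 of 269 in Aqp1 (4.46%), 14 of 596 in Clic6 (2.35%) and 3 of 206 in Sostdc1 (1.46%). Over 10019 genes of the table with a matched coding sequence the median was 3.68%, and 5% to 95% of them ran from 1.38% to 6.94%. Kl and Ttr thus stood at percentiles 85.0 and 84.0 of these genes, Aqp1 at 68.5, Clic6 at 17.8 and Sostdc1 at 5.64. With the codons TTA, TTG and TGG counted as well, the percentiles were 91.9 for Kl and 49.7 for Ttr. On that count Aqp1 stood at 54.1, Clic6 at 14.9 and Sostdc1 at 9.21.

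The RefSeq promoter table of GRCm38.p6 held the promoters of Kl (chr5:150952357-150952656) and Aqp1 (chr6:55336049-55336348), 250 bases before to 50 bases after the annotated start, both on the plus strand. They are shown as the sequence upstream of 2 members whose fitted values were higher in KO brain. The capitals mark GGGCGG, the GC box, on either strand (CCGCCC on the minus strand).
Kl: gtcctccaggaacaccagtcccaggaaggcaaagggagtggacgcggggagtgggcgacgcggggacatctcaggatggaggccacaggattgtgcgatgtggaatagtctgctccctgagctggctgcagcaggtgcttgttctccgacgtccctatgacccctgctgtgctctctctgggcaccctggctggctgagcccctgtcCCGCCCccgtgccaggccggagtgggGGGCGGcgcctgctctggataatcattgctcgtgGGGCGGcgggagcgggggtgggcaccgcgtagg
Aqp1: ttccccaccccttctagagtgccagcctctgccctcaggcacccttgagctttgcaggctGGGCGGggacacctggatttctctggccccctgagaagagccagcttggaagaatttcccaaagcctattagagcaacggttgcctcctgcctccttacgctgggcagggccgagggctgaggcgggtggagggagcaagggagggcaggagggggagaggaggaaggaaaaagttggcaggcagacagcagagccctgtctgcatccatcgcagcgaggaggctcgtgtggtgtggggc
The Kl promoter held GGGCGG 3 times, 43 bases before the start on the minus strand and 17 bases before and 17 bases after it on the plus strand. The Aqp1 promoter held it once, 190 bases before the start. GGGCGG was found in 35.7% of 32851 promoters of the same length. The motifs TAATCC (7.06% of promoters), CCAAT (37.4%) and TATAAA (13.6%), each searched on both strands, had no match in these 2 windows.

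In WT brain Ttr was far more abundant than the other 4 genes. Over all libraries it held 92.1% of the counts of the 5 genes in total mRNA and 94.8% in ribosome-contained mRNA, and by counts it was row 45 of the table in total mRNA and row 13 in ribosome-contained mRNA. Levels are given as CPM, counts scaled to a common normalized library size. Per kilobase of transcript, the WT level in total mRNA was 1886 ± 99.8 CPM for Ttr (SD, n = 3), 21.1 ± 0.630 for Clic6, 15.2 ± 0.510 for Kl, 12.4 ± 0.659 for Sostdc1 and 5.35 ± 0.933 for Aqp1. Neighbours in this order differed by more than their SDs. In ribosome-contained mRNA, per kilobase of coding sequence, the WT level was 11194 ± 644 CPM for Ttr, 65.4 ± 4.16 for Clic6, 51.7 ± 11.4 for Sostdc1, 33.0 ± 4.30 for Kl and 30.5 ± 8.96 for Aqp1. On that scale the ranges of mean ± SD overlapped for Clic6 and Sostdc1, and likewise for Kl and Aqp1. The genes were not compared within each mouse.

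The label of the group was checked against other markers of choroid plexus epithelium. Of 35 such markers 34 had a row, and 16 passed the filter on low counts in total mRNA. The transcription factor Otx2 had at most 1 count in a library, and Folr1, Calml4, Cldn2, Rdh5 and Rbm47 had 0 in all 12. Markers of other brain cells, such as Mag and Csf1r, were also at 0, and the treatment of reads shared by several transcripts is unstated. The reason for the missing counts was not tested, so they set no limit on the level of these genes. The potassium channel Kcnj13, named after its values were seen, was present at 9.76 to 16.4 CPM in total mRNA and 23.5 to 49.0 CPM in ribosome-contained mRNA, without a separation of the genotypes.

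In total mRNA, Ttr was at 2217, 2129 and 2363 CPM in the 3 WT mice and at 2678, 2692 and 2680 CPM in the 3 KO mice. All KO values were above all WT values, and the KO mice lay closer together (SD 7.50 CPM) than the WT mice (SD 118). The difference in spread was not tested. In ribosome-contained mRNA the spread of Ttr was alike, with an SD of 5.41% of the mean in KO and 5.76% in WT. The log2 fold change of KO over WT was 0.26 (SE 0.0443, 95% interval 0.17 to 0.35), a 1.20-fold difference. The gene lies on chromosome 18 at 20664209 to 20674326 (GRCm38), where it overlaps the long noncoding RNA gene Gm16090, which had 0 counts over the 12 libraries.

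The water channel gene Aqp1 (chromosome 6, 55336299 to 55348555) had the largest fitted difference of the 5 in total mRNA and the fewest counts. It was at 13.5, 11.9 and 16.7 CPM in WT mice and 22.5, 24.5 and 20.2 CPM in KO mice, from 24 to 80 counts per library. The groups did not overlap, and the log2 fold change was 0.65 (SE 0.190, 95% interval 0.27 to 1.03). Clic6 (chromosome 16, 92498147 to 92541241) was at 76.5, 80.9 and 80.4 CPM in WT and 85.6, 101 and 99.1 CPM in KO mice. KO mouse 1, the lowest of its group, was close above WT mouse 2, and the log2 fold change was 0.27 (SE 0.0935, 95% interval 0.08 to 0.46).

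Kl (chromosome 5, 150952607 to 150993817) was at 80.6, 75.4 and 78.1 CPM in WT and 81.5, 90.5 and 83.3 CPM in KO mice. The groups were just apart, between WT mouse 1 and KO mouse 1, and the 95% interval of the log2 fold change of 0.12 ran from -0.07 to 0.31. Sostdc1 (chromosome 12, 36314169 to 36318452) was at 23.3, 21.8 and 21.0 CPM in WT and 28.4, 23.3 and 24.5 CPM in KO mice. Here WT mouse 1 and KO mouse 2 met, and the log2 fold change was 0.20 (95% interval -0.13 to 0.54), or 0.12 without KO mouse 1. The last 4 genes overlap no other gene in the RefSeq gene table.

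In total mRNA, KO mice were above WT mice without overlap for 4 of the 5 genes, against 6.62% of the 8206 rows tested, and this count was the same with another scaling of the libraries. At an adjusted p under 0.05 over all rows, 1 of the 5 (Ttr) was called higher, against 7 rows or 0.0853% of all rows called higher and 0.329% called in either direction. All 5 log2 fold changes were above 0, with a median of 0.26, while the median over all rows was 0.01 and 51.9% of them were above 0. These counts come from the contrast through which the genes were chosen and are given as a description.

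**Figure D1:**
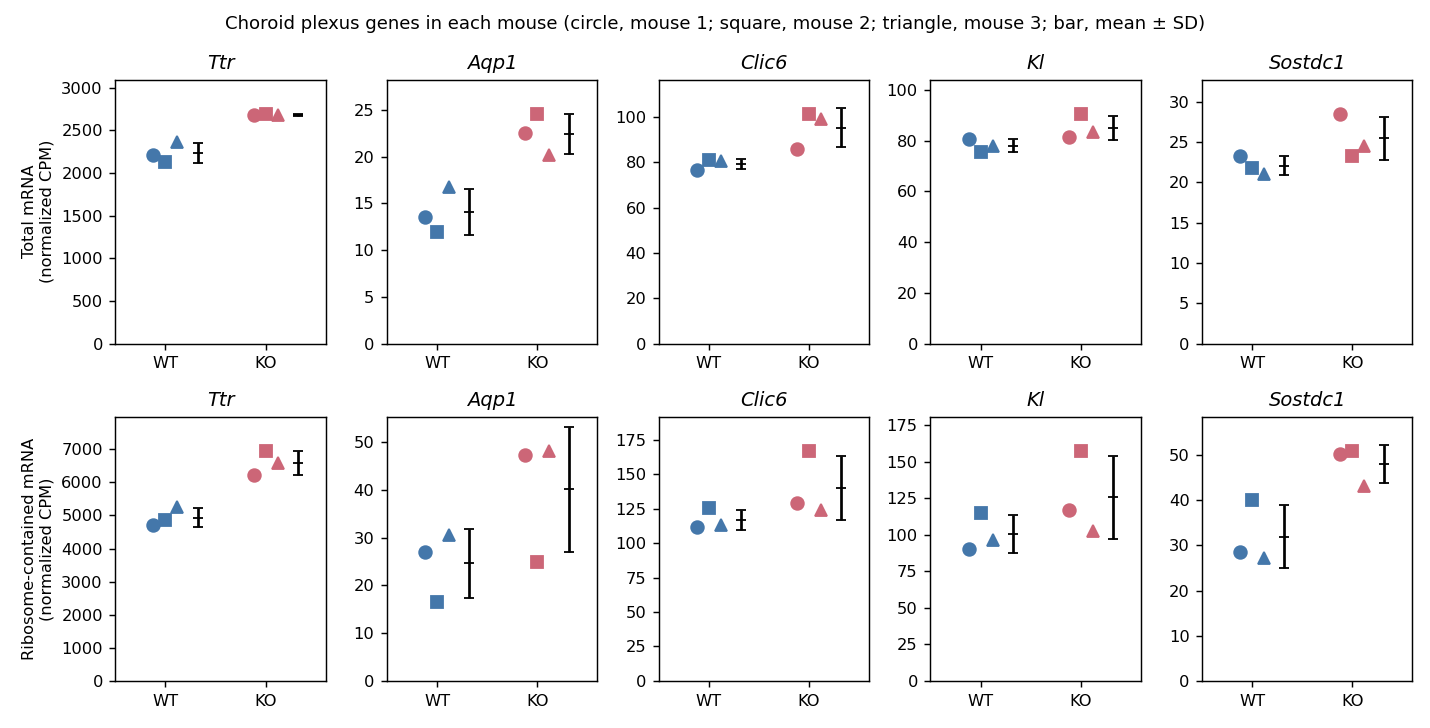
Normalized CPM (linear axis from 0) of the 5 genes in each mouse, total mRNA in the upper row and ribosome-contained mRNA in the lower row, with WT in blue, KO in red and the mean ± SD beside the points. Ttr in the KO mice sits at 2678 to 2692 CPM in total mRNA and 6220 to 6931 CPM in ribosome-contained mRNA, above all WT mice in both; Aqp1, Clic6 and Kl overlap between the genotypes in the lower row.

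In ribosome-contained mRNA, Ttr was at 4706, 4850 and 5254 CPM in WT mice and 6220, 6931 and 6584 CPM in KO mice. The lowest KO mouse was again above the highest WT mouse. The mean rose from 4937 ± 284 to 6578 ± 356 CPM (SD, n = 3 each), a log2 fold change of 0.41 (SE 0.0464, 95% interval 0.32 to 0.51, adjusted p = 3.7e-06 over all 4749 rows, edgeR), the smallest p of all rows. Without each single mouse the log2 fold change stayed between 0.37 and 0.46 and the adjusted p at or below 0.00112.

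Sostdc1, whose groups met in total mRNA, was apart in ribosome-contained mRNA, at 28.6, 40.1 and 27.2 CPM in WT and 50.2, 50.8 and 43.2 CPM in KO mice. Its log2 fold change was 0.60 (SE 0.199, 95% interval 0.20 to 1.01), which did not pass over all rows (adjusted p = 0.273, edgeR). These values rest on 34 to 57 counts per library. Kl was at 90.0, 115 and 96.0 CPM in WT and 117, 157 and 103 CPM in KO mice. The genotypes overlapped, since WT mouse 2 was above KO mouse 3, and the log2 fold change of 0.33 did not pass (SE 0.139, adjusted p = 0.423, edgeR).

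Aqp1 was at 26.9, 16.6 and 30.5 CPM in WT and 47.3, 25.0 and 48.0 CPM in KO mice. Mouse 2 was the lowest of its genotype in both groups, and KO mouse 2 lay below 2 of the 3 WT mice. The log2 fold change was 0.66 (SE 0.254, adjusted p = 0.374, edgeR), from 19 to 50 counts per library. Clic6 was at 112, 125 and 114 CPM in WT and 129, 167 and 124 CPM in KO mice. KO mouse 3 was below WT mouse 2, and the log2 fold change was 0.27 (SE 0.119, adjusted p = 0.473, edgeR).

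In ribosome-contained mRNA, 2 of the 5 genes (Ttr and Sostdc1) had KO above WT without overlap, against 7.1% of all rows. At an adjusted p under 0.05, 1 of the 5 (Ttr) was called, against 2 rows or 0.0421% of rows called higher and 0.211% called in either direction. All 5 had an unadjusted p under 0.05, as did 450 rows or 9.48% of all rows. The median log2 fold change of the 5 was 0.41, against 0.00 over all rows. Since the genes were chosen by total mRNA of the same mice, these counts are a description and not independent evidence.

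**Figure D2:**
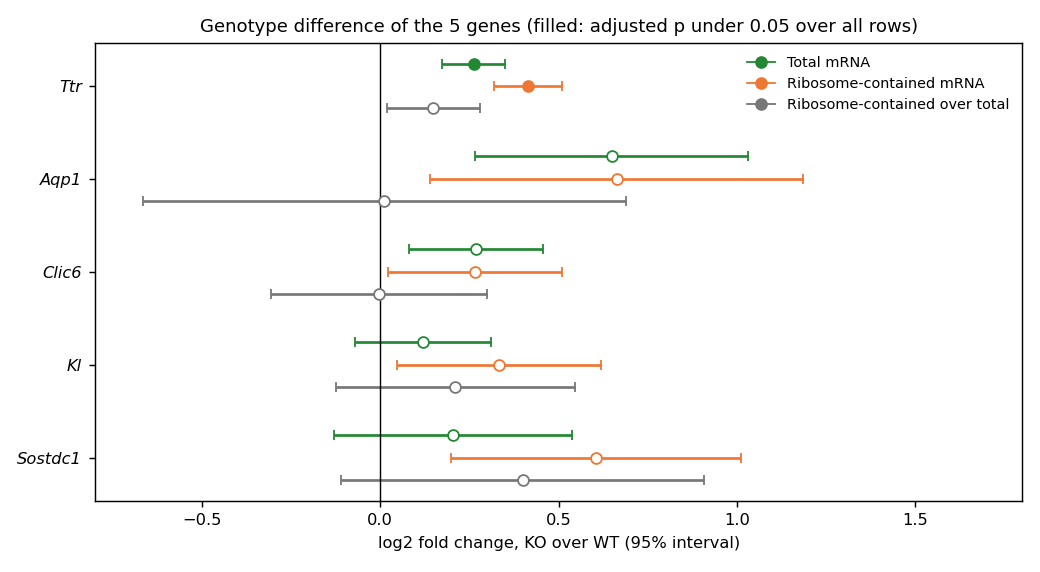
Log2 fold change of KO over WT with its 95% interval for each gene in total mRNA, ribosome-contained mRNA and their ratio, fitted with edgeR; filled points have an adjusted p under 0.05 over all rows. Ttr is filled at 0.26 and 0.41, the intervals of Kl and Sostdc1 in total mRNA include 0, and in the ratio only the interval of Ttr lies above 0.

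As a share of all counts of a library, the 5 genes together took 0.231% to 0.252% of total mRNA in WT mice and 0.288% to 0.293% in KO mice. In ribosome-contained mRNA they took 0.487% to 0.546% in WT and 0.644% to 0.720% in KO mice. Without Ttr, the other 4 genes took 0.0187% to 0.0193% of total mRNA in WT and 0.0220% to 0.0237% in KO mice. In single libraries the Wilson 95% intervals of these shares met: WT mouse 3 had 0.0193% (0.0179% to 0.0210%) and KO mouse 1 had 0.0220% (0.0205% to 0.0237%). In ribosome-contained mRNA the other 4 took 0.0252% to 0.0293% in WT and 0.0313% to 0.0392% in KO mice. The shares of the KO mice were thus above those of the WT mice in each of these sums, and the intervals cover counting error only.

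Dividing ribosome-contained by total CPM of a mouse sets how much of an mRNA is held in ribosomes against its abundance, for comparison between mice. Each library kind was scaled on its own rows, so a ratio of 1 does not mark the typical row. In WT mice Kl had a mean log2 ratio of 0.36 on this scale. In the model of both kinds it stood at 0.02, close to the typical row. Ttr had ratios of 2.12, 2.28 and 2.22 in WT mice and 2.32, 2.57 and 2.46 in KO mice. The genotypes did not overlap, which held for 1 of the 5 genes with KO above WT and for 5.96% of the 4601 rows tested. The mean log2 ratio was 1.14 ± 0.0519 in WT and 1.29 ± 0.0745 in KO (SD, n = 3), a difference of 0.15 (exact two-sided permutation p = 0.1, the smallest that 3 against 3 can give). In the model over all rows the difference was also 0.15 (95% interval 0.02 to 0.28) and did not pass (unadjusted p = 0.0259, adjusted p = 0.960, edgeR); 228 rows or 4.96% had an unadjusted p under 0.05, and 0 rows (0%) passed after adjustment. With the mouse as a block, 4 rows passed and Ttr still did not (adjusted p = 0.334, edgeR).

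Sostdc1 had ratios of 1.23, 1.84 and 1.30 in WT and 1.76, 2.18 and 1.76 in KO mice. The difference of the log2 ratios in the model was 0.40 with an interval from -0.11 to 0.91, and WT mouse 2 lay above KO mice 1 and 3. Kl had ratios of 1.12, 1.53 and 1.23 in WT and 1.43, 1.73 and 1.23 in KO mice, a difference of 0.21 (interval -0.12 to 0.55). That difference was 0.04 without KO mouse 2, 0.12 without WT mouse 1 and 0.32 without WT mouse 2. Clic6 had ratios of 1.46, 1.55 and 1.41 in WT and 1.51, 1.65 and 1.25 in KO mice, and the interval of its difference ran from -0.31 to 0.30. For Aqp1, with 1.99, 1.39 and 1.82 in WT and 2.10, 1.02 and 2.38 in KO mice, the interval was the widest of the 5, from -0.67 to 0.69. None of these 4 passed (adjusted p 0.965 to 0.999, edgeR), and the exact permutation p of the ratios per mouse was 0.3 for Sostdc1, 0.4 for Kl, 0.9 for Clic6 and 1 for Aqp1. The intervals leave room for sizeable differences in either direction for Aqp1 and Clic6, whose fitted sign also changed when single mice were left out.

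**Figure D3:**
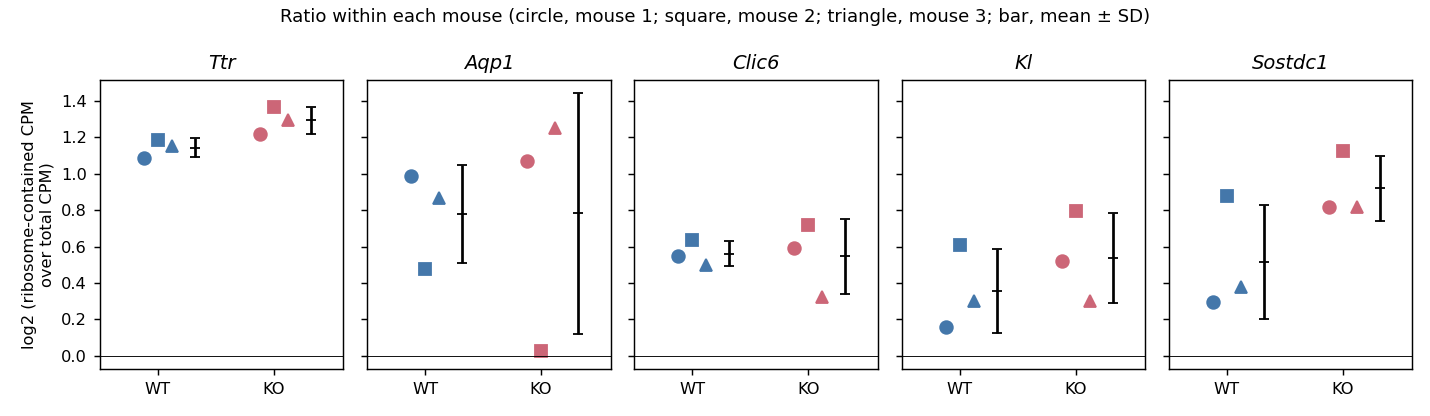
Log2 of ribosome-contained over total CPM within each mouse, WT in blue and KO in red, with the mean ± SD beside the points. The line at 0 does not mark the typical row, since each library kind was scaled on its own rows. Ttr is the gene whose genotypes are apart, with WT at 1.14 ± 0.0519 and KO at 1.29 ± 0.0745; Aqp1 spreads most, with KO mouse 2 at 0.02.

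Within WT brain, ribosome-contained mRNA was set against total mRNA of the same mice, a contrast that had no part in the choice of the genes. Ttr stood 0.81 above the typical row on the log2 scale (SE 0.0461), a 1.75-fold higher ratio, which passed over all 4601 rows (adjusted p = 3.77e-20, edgeR) and put it at percentile 82.1. In this contrast 72.7% of all rows were called, 36% higher and 36.7% lower. The ratio was not corrected for the coding part of each transcript. That part was 441 of 1186 bases in Ttr, 807 of 2627 in Aqp1 and 3042 of 5118 in Kl. It was 1788 of 3758 bases in Clic6 and 618 of 1781 in Sostdc1. Differences between genes in this ratio were thus not separated from differences in coding part. Aqp1 stood at 0.48 (SE 0.242, adjusted p = 0.0717, edgeR) and Clic6 at 0.23 (SE 0.109, adjusted p = 0.0601, edgeR). With the mouse as a block these 2 passed as well, at 0.49 (adjusted p = 0.0441) and 0.22 (adjusted p = 0.0460). Sostdc1 at 0.18 (adjusted p = 0.386, edgeR) and Kl at 0.02 (adjusted p = 0.895, edgeR) did not differ from the typical row beyond their error, and the 95% interval of Kl ran from -0.22 to 0.26. Of 12 other choroid plexus markers tested in both kinds of library, 9 were called higher and 1 lower, with a median of 1.01 against 0.02 over all rows.

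None of the other choroid plexus markers passed between the genotypes. In total mRNA 10 of the 16 tested were above 0 and 0 were called, with a median of 0.04 and a range of -0.13 to 0.48. Of these 16, 0 had an unadjusted p under 0.05 (edgeR), against 8.15% of all rows. Their summed level was 471 to 482 CPM in WT and 465 to 520 CPM in KO mice, which overlapped. In ribosome-contained mRNA 7 of 13 were above 0 and 0 were called (edgeR), with a median of 0.06 and a range of -0.22 to 1.05. The 3 with an unadjusted p under 0.05 (edgeR), against 9.48% of all rows, were all above 0. Summed levels were 984 to 1060 CPM in WT and 1051 to 1095 CPM in KO mice. Much of the sums in both kinds of library came from the markers with the most counts. Whole brain does not separate their expression in other cells from that in the choroid plexus. With the replicate numbers as a block, which do not pair WT with KO mice, 1 of the 13 passed (Krt18, adjusted p = 0.0424, edgeR).

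The 5 of these markers with the most counts were Ezr, Igfbp2, Htr2c, Ecrg4 and F5. Ezr, which links the membrane to actin, was at 118 ± 10.1 CPM in WT and 122 ± 5.00 CPM in KO in total mRNA, and at 187 ± 16.5 and 195 ± 17.1 CPM in ribosome-contained mRNA. Igfbp2, a binding protein for insulin-like growth factors, was at 89.3 ± 5.96 and 97.9 ± 18.0 CPM in total mRNA and at 257 ± 17.9 and 247 ± 12.1 CPM in ribosome-contained mRNA. The serotonin receptor gene Htr2c, which overlaps small noncoding RNA genes, had log2 fold changes of 0.00 and -0.04. Ecrg4, which encodes a secreted precursor, had log2 fold changes of -0.02 in total and 0.33 in ribosome-contained mRNA, and coagulation factor F5, which also overlaps noncoding RNA genes, 0.04 and 0.15. None of the 5 passed in either kind of library (adjusted p at or above 0.396, edgeR), and their directions in total mRNA changed when single mice were left out.

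**Figure D4:**
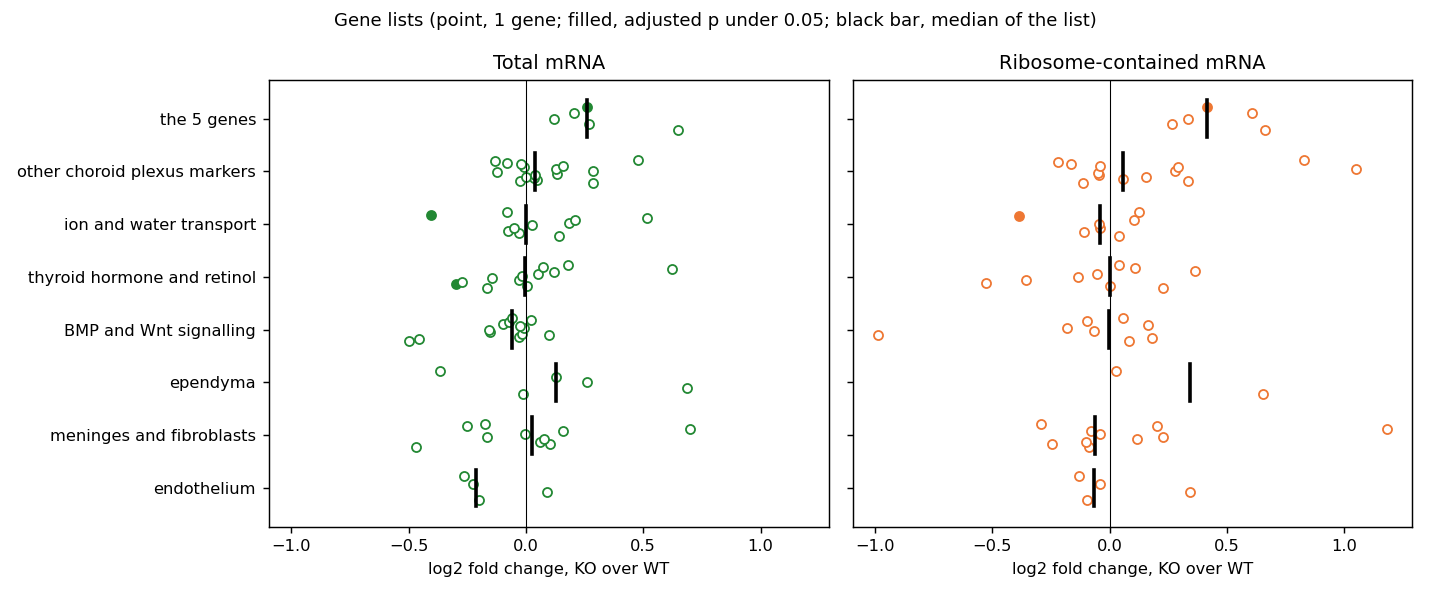
Log2 fold change of KO over WT of each tested gene (points; filled where the adjusted p is under 0.05) by gene list, with the median of each list as a black bar, in total mRNA on the left and ribosome-contained mRNA on the right. The medians of the 5 genes are 0.26 and 0.41, those of the other choroid plexus markers 0.04 and 0.06, and the filled points outside the 5 genes are Slc5a3 on both sides and Dio2 in total mRNA.

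Genes for ion and water transport across the epithelium, most of them active in other brain cells too, gave 5 of 10 tested above 0 in total mRNA, with 1 called lower (0.244% of all rows were) and a median of -0.0017. The called gene was Slc5a3, the sodium/myo-inositol cotransporter, which fell from 321 ± 14.2 to 243 ± 30.8 CPM (log2 -0.40, SE 0.0685, adjusted p = 0.00171, edgeR) and overlaps Mrps6. Without KO mouse 1 it did not pass (adjusted p = 0.0561, edgeR). In ribosome-contained mRNA it was again the 1 of 7 called lower (0.168% of all rows were), at -0.39 (adjusted p = 0.0122, edgeR), and it did not pass there without WT mouse 1, WT mouse 2, KO mouse 1 or KO mouse 3 (adjusted p 0.0613 to 0.143, edgeR). The sodium pump beta subunits had log2 fold changes in total and ribosome-contained mRNA of -0.08 and -0.04 for Atp1b1, which overlaps Nme7, and of -0.05 and -0.05 for Atp1b2. Lrrc8a, a subunit of the volume-regulated anion channel, was at 0.18 and 0.10, and none of these 3 passed.

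Around Ttr, 12 genes of thyroid hormone and retinol transport and action were tested in total mRNA, with 6 above 0 and a median of -0.01. Of these, 1 was called lower (0.244% of all rows were). That gene was Dio2, the deiodinase that makes active thyroid hormone in the brain, on chromosome 12 at 90724552 to 90739038, where it overlaps the long noncoding RNA gene Gm26512. It was at 311, 271 and 280 CPM in WT and 235, 251 and 219 CPM in KO mice, without overlap, as were 6.68% of all rows with KO below WT. It fell by 0.30 on the log2 scale (SE 0.0635, adjusted p = 0.0113, edgeR), a call that did not hold without WT mouse 1 (adjusted p = 0.365, edgeR), without KO mouse 1 (adjusted p = 0.149, edgeR) or without KO mouse 3 (adjusted p = 0.191, edgeR). In ribosome-contained mRNA Dio2 was at 122, 119 and 121 CPM in WT and 82.0, 97.1 and 71.0 CPM in KO mice, again without overlap (7.56% of all rows with KO below WT), with a log2 fold change of -0.53 (SE 0.126, adjusted p = 0.0730, edgeR), and it passed without KO mouse 2 (adjusted p = 0.0140, edgeR). Of the 9 genes tested there, 0 passed and 3 had an unadjusted p under 0.05 (edgeR), as did 9.48% of all rows.

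The lists around the other 3 genes held no call. In the chloride intracellular channel family, Clic1 and Clic4 were tested in total mRNA, with log2 fold changes of 0.08 and 0.04. In klotho and FGF receptor signalling 3 genes were tested in total mRNA, with a median of 0.12, and the receptors Fgfr1, Fgfr2 and Fgfr3, each with several transcript models, had 0 counts in all libraries. In BMP and Wnt signalling 2 of 13 genes were above 0 in total mRNA, with a median of -0.06, and 4 of 8 in ribosome-contained mRNA, with a median of -0.0043. In edgeR 0 genes of these 3 lists passed in either kind of library. The BMP and Wnt list had 1 gene in total and 2 in ribosome-contained mRNA with an unadjusted p under 0.05 (edgeR). Over all rows the shares were 8.15% and 9.48%.

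Markers of tissues that adjoin the choroid plexus or share its dissection gave 0 calls in edgeR. In total mRNA, ependymal markers summed to 135 to 147 CPM in WT and 146 to 175 CPM in KO mice, with a median log2 fold change of 0.13 over 5 tested genes, and Rarres2, Cfap126 and Meig1 were at 0. Markers of meninges and fibroblasts summed to 396 to 431 CPM in WT and 376 to 454 CPM in KO mice (median 0.03 over 10 genes). Endothelial markers were at 317 to 349 CPM in WT and 283 to 315 CPM in KO mice (median -0.21 over 4 genes), with Pecam1, Tek and Cdh5 among the 6 of 12 at 0. Blood cell markers were at 123 to 189 CPM in WT and 145 to 199 CPM in KO mice (median 0.34 over 4 genes). The endothelial sum thus stood just apart, in the other direction from Ttr, while the sums of the other 3 lists overlapped. In ribosome-contained mRNA the sums of all 4 lists overlapped, the endothelial one at 470 to 540 CPM in WT and 453 to 515 CPM in KO mice.

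Sums of markers of the main brain cell types were in part lower in KO mice, with 0 genes called in edgeR. Neuronal markers summed to 4660 to 4736 CPM in WT and 4361 to 4578 CPM in KO mice in total mRNA, and to 9770 to 10351 and 9293 to 9669 CPM in ribosome-contained mRNA. Oligodendrocyte markers, with Mag among those at 0, summed to 2054 to 2103 CPM in WT and 1795 to 1974 CPM in KO mice in total mRNA, and overlapped in ribosome-contained mRNA. Microglial markers, with Csf1r at 0, overlapped in total mRNA and summed to 651 to 684 CPM in WT and 571 to 637 CPM in KO mice in ribosome-contained mRNA. The sums of astrocyte markers and of pericyte and smooth muscle markers overlapped in both kinds of library. These sums follow the genes with the most counts. Cldn11 held 45214 counts over the 12 libraries, against 4639 for Mbp, the next of the tested oligodendrocyte markers. In total mRNA, 2 of 5 tested oligodendrocyte markers and 3 of 7 tested neuronal markers had log2 fold changes above 0. Several of these sums were thus apart with KO below WT, without all their genes being lower. The part of any of these lists in the differences of the 5 genes was not tested.

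The libraries of KO mouse 2 held growth hormone mRNA (Gh, a pituitary gene singled out after its values were seen) at 89.9 CPM in total and 55.3 CPM in ribosome-contained mRNA, where the other mice had 0.296 to 4.41 and 0.960 to 7.57 CPM. Without KO mouse 2, Ttr stood at 0.26 in total mRNA and at 0.37 in ribosome-contained mRNA (adjusted p = 8.99e-06, edgeR). The log2 fold changes of Kl were then smaller by more than 1.5 times, at 0.07 in total and 0.13 in ribosome-contained mRNA, as was that of Clic6 in ribosome-contained mRNA (0.12; 0.22 in total mRNA). Aqp1 stood at 0.58 and 0.92 and Sostdc1 at 0.26 and 0.56 without that mouse.

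The rows most like Ttr were ranked by Pearson's r of log2(CPM + 1), centred within each library kind, over the 12 libraries, which come from 6 mice. This is a description, and any gene that differs between the genotypes in both kinds of library will resemble Ttr. Among 4600 other rows the highest were Wdr34 (0.930), a dynein subunit gene, Ccdc142 (0.929), which overlaps Mrpl53, the keratin gene Krt18 (0.898), the glutathione transferase gene Gstp1 (0.877) and Fndc10 (0.869). Of the other 4 members Clic6 ranked 44 (r = 0.754), Sostdc1 70 (0.728), Aqp1 115 (0.686) and Kl 167 (0.654), while the median over all rows was -0.02 and 0.0435% of rows exceeded 0.9. Krt18, also a marker of simple epithelia such as the choroid plexus, was at 9.25, 13.1 and 14.3 CPM in WT and 23.2, 25.8 and 27.8 CPM in KO mice in ribosome-contained mRNA. The groups did not overlap there, as for 7.1% of all rows with KO above WT. Its log2 fold change of 1.05 did not pass over all rows (SE 0.275, adjusted p = 0.116, edgeR). In total mRNA the groups overlapped, at 4.41, 3.97 and 6.23 CPM in WT and 5.93, 4.91 and 7.31 CPM in KO mice. The log2 fold change there was 0.29 (adjusted p = 0.872, edgeR), and Krt18 had 232 counts over the 12 libraries.

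Set beside the codon content, the log2 fold changes in ribosome-contained mRNA, from the gene richest in phenylalanine codons to the poorest, were 0.33 for Kl, 0.41 for Ttr, 0.66 for Aqp1, 0.27 for Clic6 and 0.60 for Sostdc1. These values include the differences in total mRNA. In the ratio of both, the differences in the same order were 0.21, 0.15, 0.01, -0.0036 and 0.40. With 5 genes no relation was computed, and a link to codon content was not tested.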

How the data were processed

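The 12 HiSeq libraries of polyadenylated total mRNA and ribosome-contained mRNA were analysed from the raw read counts per RefSeq accession that the authors deposited (106519 rows). Another 6 per-sample columns, codon counts at the ribosomal A site, were not used here. The submitters' processing notes name Bowtie2, HISAT2, HTSeq and mm10 without versions; strand use and the treatment of reads shared by several transcripts are unstated there. Accessions were matched to symbols with a RefSeq gene table of GRCm38 (86040 rows, 98.0% of counts), and positions and sequences come from RefSeq and GENCODE M21.

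The test was edgeR's robust quasi-likelihood test on counts (version 4.0.16; TMM; filter at a minimum count of 10 and a minimum total of 15) in R 4.3.3, with limma 3.58.1. Each library kind was fitted alone for genotype. For the ratio, a model of 12 libraries with genotype, library kind and their interaction gave the interaction between genotypes and the library kind term in WT. P-values were adjusted by Benjamini-Hochberg over all rows tested, with a threshold of 0.05, and intervals are 95%. Alternatives were DESeq2 1.42.0, RLE scaling, no filter, counts summed per symbol, a replicate block and leaving out each mouse. The fits were also run on simulated counts. The rows changed there had more counts than Aqp1 or Sostdc1, and the 2 libraries of a mouse shared no effect. How well the fits recover changes at the counts of these genes was thus not tested.

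The labels give separate mice per replicate, and the 2 libraries of a mouse carry the same number, so they come from the same animal; their deviations from the group means correlated at 0.0271 to 0.156, and 11 of 12 libraries correlated best with their own mouse. The members and lists were chosen with earlier results of these data known. Named beside the members were list genes called in a genotype fit, the 5 most counted genes each of the choroid plexus marker and transport lists, and the 5 rows most like Ttr; 1 gene that this rule names is not reported here.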

Additional observations from a re-analysis of the deposited data

How the results depend on the processing

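Of the 5 genes, 1 (Ttr) was called in total and in ribosome-contained mRNA and 0 in the ratio between genotypes under all 11 alternatives. Ttr ran from 0.226 to 0.300 in total mRNA, from 0.373 to 0.460 in ribosome-contained mRNA (adjusted p 3.46e-15 to 0.00112) and from 0.0967 to 0.194 in the ratio (adjusted p 0.334 to 1.000). In the WT ratio of ribosome-contained to total mRNA the count of members called went from 1 to 3 with no filter, 2 with counts summed per symbol, 3 with the replicate block and 1 to 3 without single mice; the cause was not tested. The rows called were 27 in total mRNA (43 with no filter, 9 without KO mouse 1, 15 without WT mouse 1, 42 without WT mouse 3), 10 in ribosome-contained mRNA (27 with no filter, 48 with the replicate block, 4 without WT mouse 1, 5 without WT mouse 2, 24 without WT mouse 3 and likewise without KO mouse 2), 0 in the ratio (4 with no filter, 4 with the block, 0 to 4 without single mice) and 3344 in the WT ratio (6571 with no filter). Between genotypes the replicate numbers name different mice; same-numbered WT and KO libraries deviated with correlations of -0.0722 to 0.00976 in total mRNA, where 1 of 6 correlated best with its own number, and of 0.0190 to 0.0264 in ribosome-contained mRNA, where 6 of 6 did. With the block Ttr was at 0.26 and 0.41, and Krt18 (1.06, adjusted p = 0.0424, edgeR) and Dio2 (-0.54, adjusted p = 0.00953, edgeR) were called in ribosome-contained mRNA; Dio2 was also called there with no filter (adjusted p = 0.0235, edgeR), and Slc5a3 was not with DESeq2 (adjusted p = 0.112). Signs changed for values near 0. In the ratio Aqp1 was at -0.0050 with no filter, -0.00022 with the block and -0.222 to 0.324 without single mice, and Clic6 at -0.124 to 0.0964; per mouse these were -0.23 to 0.383 and -0.101 to 0.0974. Without single mice Kl ran from 0.0420 to 0.317 in the ratio (per mouse 0.0556 to 0.310), and Sostdc1 from 0.116 to 0.260 in total mRNA. In the WT ratio Kl was at -0.0984 to 0.108 and Sostdc1 at -0.00168 to 0.29 without single mice. In total mRNA without single mice Ezr was at -0.027 to 0.0898, Igfbp2 at -0.0339 to 0.208, Ecrg4 at -0.125 to 0.0339, F5 at -0.0501 to 0.136 and Htr2c at -0.0489 to 0.0717; Htr2c was at -0.0025 with RLE scaling, -0.0031 with DESeq2, -0.015 with no filter and -0.0058 with the block. In ribosome-contained mRNA Ezr was at -0.0127 to 0.127, Htr2c at -0.128 to 0.0416 and Atp1b2 at -0.12 to 0.00523. The median of the other choroid plexus markers in ribosome-contained mRNA was 0.0751 to 0.109 without single mice and -0.0522 with no filter. Counts of 19 to 80 per library limit Aqp1, and 34 to 96 Sostdc1. Leaving out mice in the ratio per mouse, and RLE scaling there, were chosen after seeing the data.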

Other observations

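Mouse 2 of each genotype had the highest ratio of ribosome-contained to total mRNA within its genotype for Ttr, Clic6, Kl and Sostdc1, and the lowest for Aqp1. For Kl these ratios were 1.53 in WT mouse 2 and 1.73 in KO mouse 2, against 1.12 to 1.43 in the other 4 mice. For Aqp1 they were 1.39 and 1.02, against 1.82 to 2.38. Aqp1 rested on 19 and 28 counts in the ribosome-contained libraries of these 2 mice, and this pattern was noticed in the data and not tested.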
